A study of Mus musculus with 15 samples.

Results

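The angiopoietin and Tie receptor genes examined here were the ligands Angpt1 and Angpt2, the receptors Tek (also called Tie2) and Tie1, and the receptor phosphatase Ptprb (also called VE-PTP). They were taken by gene symbol from the table of raw read counts, and all 5 were found among its 49585 genes. Counts were available from 15 libraries in 5 groups of 3. The 005 group was a glioma stem cell line of C57BL/6 mouse origin, a single line grown in stem cell medium without serum. TDECs were tumor-derived endothelial cells, made from 005 cells in EGM-2 BulletKit medium at 1% oxygen, and were collected on day 2 (TDEC day 2) or as untreated TDECs whose label gives no day and which were taken as the day 5 cells of the study. The TDEC sertraline group had 5 days of differentiation, then 5 µM sertraline, a serotonin reuptake inhibitor, and was collected 24 h later. MBMECs were purchased mouse brain microvascular endothelial cells, grown with serum in another medium for which no oxygen level is given. All groups other than MBMEC therefore came from the same glioma line, and medium, oxygen and cell origin cannot be told apart in any comparison with MBMECs. No oxygen level is given for 005 either, and its medium differed from that of TDECs. Medium, any difference in oxygen and differentiation therefore cannot be told apart in any comparison of TDECs with 005. The library titles of 005, TDEC day 2 and untreated TDECs share a prefix that those of the treated TDECs and MBMECs lack. What the prefix stands for is not stated. Whatever it marks, or 1 more day in culture, cannot be told apart from the drug. The prefix also separates MBMECs from 005, TDEC day 2 and untreated TDECs, and cannot be told apart from cell origin there.

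Angiopoietin-1 and angiopoietin-2 are secreted ligands of the Tie2 receptor tyrosine kinase on endothelial cells. Angiopoietin-1, made mainly by perivascular cells, activates Tie2 and stabilises vessels, while angiopoietin-2, released by endothelial cells, is a context-dependent ligand that often opposes it. Tie1 binds no angiopoietin with high affinity and modulates Tie2, and VE-PTP removes phosphate from Tie2. Tek, Tie1 and Ptprb are known as genes of the endothelial lineage.

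The libraries held 11283680 to 17093061 counts each, so that a gene with 3 counts over a whole group stood at 0.066 to 0.086 CPM, the usual unit of counts scaled for library size. Replicate 3 of 005 and of TDEC day 2 and replicate 2 of TDEC sertraline stood apart from the others of their group, the chi-square statistic per gene being 6.97 to 11.7 for pairs with them and 2.15 to 2.50 for the pairs without. The labels were checked against marker genes. A list of 12 endothelial markers summed to 8690 to 8910 CPM in MBMECs and to 8.30 to 16.8 CPM in the 4 glioma-derived groups, where Cldn5 and Sox17 were at 0 in every library. The TDEC label therefore does not rest on the transcript levels of these markers. The study named the cells by how they were made and by staining for the proteins CD31 and CD34, which transcript counts do not measure. It also reported that TDECs formed tubes on Matrigel, where undifferentiated 005 cells formed no obvious ones. From the RNA data it reported blood vessel morphogenesis as the top term among genes higher in TDECs than in 005.

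The stretches of 250 bases before the RefSeq starts of both receptor genes are shown because the receptors separated MBMECs from all other groups. They were read from RefSeq (GRCm38.p6), and lie at chr4:94739039-94739288 on the plus strand for Tek and at chr4:118489850-118490099 on the minus strand for Tie1. Capitals mark GGAA on either strand (TTCC on the strand printed), the core that ETS factors, a family with endothelial members, recognise.
Tek: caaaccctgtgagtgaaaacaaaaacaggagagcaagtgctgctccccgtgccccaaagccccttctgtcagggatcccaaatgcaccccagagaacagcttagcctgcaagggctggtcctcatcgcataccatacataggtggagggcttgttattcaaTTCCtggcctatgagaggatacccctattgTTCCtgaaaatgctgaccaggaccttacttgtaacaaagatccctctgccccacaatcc
Tie1: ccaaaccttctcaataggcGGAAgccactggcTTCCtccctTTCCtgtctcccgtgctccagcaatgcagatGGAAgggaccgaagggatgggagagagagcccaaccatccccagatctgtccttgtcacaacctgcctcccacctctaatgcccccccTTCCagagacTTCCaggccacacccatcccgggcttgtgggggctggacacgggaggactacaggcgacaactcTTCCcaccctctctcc
The Tek window held 2 matches and the Tie1 window 7, against a median of 3 over 32851 RefSeq promoter windows (lowest and highest decile 1 and 5). GGAA was present in 93.4% of all windows, so its presence alone distinguishes neither gene. The longer AGGAAG, which contains GGAA, was found 0 times for Tek and 1 time for Tie1 (29.5% of all windows have it), while AGATAA, recognised by zinc finger factors active in endothelium, was found in neither window (9.99% of all have it). A match is only a description of the letters. The gene model of the count table starts within the Tie1 window, at chr4:118490061. By that model most of the Tie1 window and of its matches lie inside the gene, whereas the Tek window lies wholly before its gene.

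Angpt2 was the only member with more than 50 counts in every library, and its level was high in the glioma-derived cells and low in MBMECs. The gene (ENSMUSG00000031465) lies at chr8:18690263-18741562 on the minus strand of mm10. The 005 libraries held 689, 716 and 1054 counts, or 49.8, 52.6 and 75.5 CPM in replicates 1 to 3. TDEC day 2 held 670, 725 and 686 counts (50.9, 52.0 and 57.0 CPM). Untreated TDECs held 666, 650 and 733 counts (60.7, 54.3 and 60.7 CPM). These 3 groups overlapped, and the highest of their libraries was replicate 3 of 005, which also stood apart over all genes. TDEC sertraline held 274, 288 and 256 counts, or 19.8, 20.9 and 18.6 CPM. MBMECs held 119, 126 and 121 counts, or 7.49, 8.43 and 8.34 CPM. Neither of these groups overlapped any other. The means were thus 59.3 ± 14.1 CPM in 005 (SD, n = 3 here and below), 58.6 ± 3.68 in untreated TDECs, 53.3 ± 3.25 in TDEC day 2, 19.8 ± 1.12 in TDEC sertraline and 8.09 ± 0.52 in MBMECs. The first 3 in that order were not distinguished from each other, whereas each later step was. In bulk RNA, a smaller share of cells making a transcript and less of it per cell cannot be told apart.

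**Figure D1:**
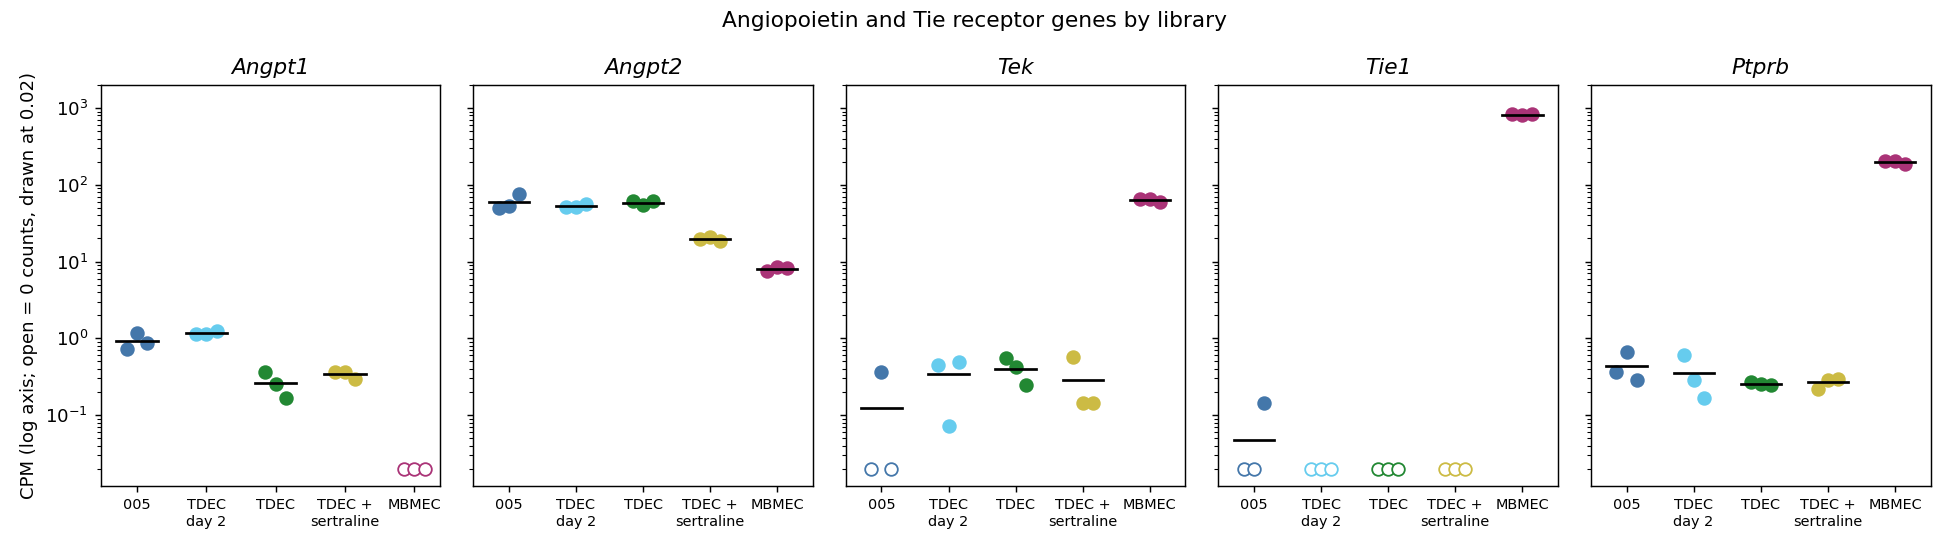
Each point is 1 library, with CPM on a log axis and 1 panel per gene for the 5 groups; bars are group means and open points are libraries with 0 counts, drawn at 0.02. Angpt2 is above 18 CPM in all glioma-derived libraries and under 9 in MBMECs, while Tek, Tie1 and Ptprb are above 60 CPM in MBMECs and under 1 elsewhere.

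Angpt1 was scarce in every group. The gene (ENSMUSG00000022309) lies at chr15:42424727-42676977 on the minus strand. Its counts were 10, 16 and 12 in 005 and 15, 16 and 15 in TDEC day 2. They were 4, 3 and 2 in untreated TDECs and 5, 5 and 4 with sertraline. All 3 MBMEC libraries held 0. The untreated and treated TDECs thus lay below every 005 and day 2 library, with no overlap. Mean levels were 0.919 ± 0.232 CPM in 005, 1.18 ± 0.059 in TDEC day 2, 0.260 ± 0.0999 in untreated TDECs and 0.338 ± 0.041 with sertraline, and 3 counts over the MBMEC group would be 0.066 CPM. Per kb of exon, the level of Angpt2 in 005 was 16.1 CPM and that of Angpt1 0.177 CPM. Mural cells are a usual source of angiopoietin-1, and a list of 10 mural markers summed to 158 to 203 CPM in the glioma-derived groups and to 5.04 to 6.69 CPM in MBMECs, where Rgs5, Des, Kcnj8 and Abcc9 were at 0. Cspg4 and Notch3 carried most of that sum (89.5 and 82.5 CPM in 005, 18.0 and 162 CPM in untreated TDECs), and 2 of the 10 reached a mean of 1 CPM in 005, 4 or 5 in the TDEC groups and 3 in MBMECs. The part of mural marker levels in the Angpt1 values was not tested.

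The receptors and the phosphatase showed the opposite distribution. Tek (ENSMUSG00000006386, chr4:94739289-94874976, plus strand) had 1026, 968 and 878 counts in the MBMEC libraries. In the others it had 0, 5 and 0 counts in 005, 6, 1 and 6 in TDEC day 2, 6, 5 and 3 in untreated TDECs, and 8, 2 and 2 with sertraline. No library outside MBMEC exceeded 8 counts, and the 4 groups overlapped each other. Mean levels of Tek were 63.3 ± 2.41 CPM in MBMECs and between 0.122 ± 0.212 CPM (005) and 0.404 ± 0.150 CPM (untreated TDECs) elsewhere, that is 0.193% to 0.639% of the MBMEC mean. Some myeloid cells carry Tie2, and a list of 7 myeloid markers summed to 12.0 to 12.6 CPM in 005, 14.7 to 16.0 in TDEC day 2, 33.8 to 39.6 in untreated TDECs, 23.0 to 30.8 with sertraline and 103 to 118 in MBMECs. Of these, 2 reached a mean of 1 CPM in the glioma-derived groups (Csf1r and Cd68) and 3 in MBMECs, where Itgam was at 0. Their part in the Tek counts was not tested.

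Tie1 (ENSMUSG00000033191, chr4:118471191-118490061, minus strand) had 13260, 11984 and 12025 counts in MBMECs. It had 2 counts in replicate 3 of 005 and 0 in the other 11 glioma-derived libraries. It was the most abundant member in MBMECs per kb of exon, at 167 ± 3.55 CPM per kb, ahead of Ptprb at 14.9 ± 0.792, Tek at 13.4 ± 0.511 and Angpt2 at 2.192 ± 0.141. Ptprb (ENSMUSG00000020154, chr10:116301374-116389538, plus strand) had 3293, 3026 and 2714 counts in MBMECs. In the glioma-derived libraries it had 2 to 9 counts, with group means of 0.257 to 0.436 CPM, or 0.129% to 0.219% of the MBMEC mean of 199 ± 10.6 CPM. For Ptprb the untreated TDECs (3 counts in each library) lay below all 005 libraries (5, 9 and 4 counts), the other pairs of groups made from 005 overlapped, and no group overlapped MBMEC.

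The comparison of untreated TDECs with MBMECs asks how TDECs differ from normal brain endothelium. Genes were compared over all features by edgeR's quasi-likelihood test with Benjamini-Hochberg adjustment, and a call required both an adjusted p below 0.05 and a change of more than 2-fold (1 on the log2 scale). Of the 5 genes 4 had enough counts to be tested, Tek, Tie1 and Ptprb only through the MBMEC libraries, where they are high, so their calls are a description. Of these 4, 1 was called higher and 3 lower in TDECs, where 48.9% of the 16135 genes tested were called (28.1% higher and 20.8% lower). The study had picked Angpt2 as higher and Tek as lower in TDECs from these same libraries. Their values here are therefore not independent evidence of direction. Angpt2 was higher in TDECs by a log2 fold change of 2.86 (SE 0.091, adjusted p = 8.5e-22). Tek was lower by a log2 fold change of -7.27 (SE 0.158, adjusted p = 9.0e-26), and the MBMEC level was 158.5 times that of TDECs (95% counting interval 94.3 to 290.2). Ptprb gave a log2 fold change of -9.54 (SE 0.129, adjusted p = 1.3e-30), with a ratio of 775.3 (408.3 to 1696). Tie1, at 0 in TDECs, was at least 9597-fold lower when set against 3 counts over the group (adjusted p = 1.9e-32). Angpt1 was left out by the count filter, and its 9 counts against 0 put it at least 3.88-fold higher in TDECs on the same floor. Counting intervals cover counting error only. Floor bounds set the observed count against 3 counts and leave out the counting error of the observed count itself.

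The undifferentiated line was placed in the same way relative to MBMECs. All 5 genes passed the filter, Angpt1 through the 005 libraries alone and Tek, Tie1 and Ptprb through the MBMEC libraries alone, and 2 were called higher and 3 lower in 005, against 44% of the 15992 genes tested being called in either direction (25.3% higher, 18.7% lower). Angpt2 was higher by 2.87 on the log2 scale (SE 0.166, adjusted p = 5.2e-09), and Angpt1 was at least 13.9-fold higher. The log2 fold changes of Tek and Ptprb were -8.94 (SE 0.287, adjusted p = 1.7e-11) and -8.81 (SE 0.144, adjusted p = 4.5e-14). Without replicate 3 of 005, that of Tek was -8.39 (adjusted p = 1.0e-17), and without replicate 2, which held all 5 Tek counts, Tek was at 0 in 005. Tie1 was lower, with a ratio of MBMEC to 005 of 17030 (4713 to 140600), which rests on the 2 counts in replicate 3 of 005. Against MBMECs, the TDEC day 2 libraries had 2 of 5 tested genes called higher and 3 lower (43.7% of all genes called, 24.5% higher and 19.2% lower), and the sertraline libraries 1 higher and 3 lower of 4 tested (48.5% called, 27.8% higher and 20.8% lower). In these comparisons Angpt2 was higher by 2.70 (SE 0.0996, adjusted p = 1.2e-10) and 1.31 (SE 0.114, adjusted p = 1.9e-08) on the log2 scale. Tek stood at -7.56 (SE 0.210, adjusted p = 8.9e-12) and -7.71 (SE 0.193, adjusted p = 1.7e-15), and at -8.67 with sertraline when replicate 1, the library with 8 counts, was left out. Ptprb stood at -9.11 (SE 0.165, adjusted p = 2.7e-13) and -9.48 (SE 0.132, adjusted p = 2.2e-18), and at -9.71 on day 2 without replicate 1. Tie1 was at least 10730-fold and 11340-fold lower, and Angpt1 at least 17.8-fold and 5.11-fold higher. In these comparisons too, the members other than Angpt2 passed the filter only through the group where they are high. All comparisons with MBMEC share the same 3 MBMEC libraries. Tek was thus far below the MBMEC level before differentiation, on day 2, in untreated TDECs and with sertraline alike.

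The comparisons among 005, TDEC day 2 and untreated TDECs follow the time course. In those with 005, medium and any difference in oxygen cannot be told apart from differentiation. Between TDEC day 2 and 005, 9.83% of 15344 genes tested were called (5.35% higher, 4.48% lower), and of the 2 members tested 0 were called by edgeR, 0 had an unadjusted p under 0.05, and 0 were called by DESeq2. Angpt2 differed by -0.17 on the log2 scale (95% interval -0.488 to 0.142, adjusted p = 0.364), and by 0.064 (adjusted p = 0.594) when replicate 3 of 005 was left out. Angpt1 differed by 0.34 (SE 0.362, adjusted p = 0.49). Between untreated TDECs and day 2, 20.5% of genes were called (11.1% higher, 9.35% lower). Of the 2 members tested 1 was called, Angpt1, which fell by 2.16 on the log2 scale (SE 0.458, adjusted p = 0.00168) from 46 counts over the group to 9. Angpt1 passed the filter here only through the day 2 libraries, where it is high, so its call is a description. Angpt2 differed by 0.12 (95% interval -0.0461 to 0.292, adjusted p = 0.183). Between untreated TDECs and 005, 23.4% of genes were called, and of the members Angpt2 alone was tested, with 0 called by edgeR, 0 at an unadjusted p under 0.05 and 0 called by DESeq2. Its log2 fold change was -0.04 (95% interval -0.329 to 0.253, adjusted p = 0.816) and became 0.176 (adjusted p = 0.0221) without replicate 3 of 005, still under the fold threshold. Angpt1 fell short of the count filter here. With a filter of 1 count it was called, at -1.83 (SE 0.606, adjusted p = 0.00846), and its counts of 9 and 38 gave a ratio of 005 to TDEC of 3.57 (1.70 to 8.40). Tek had 5 counts in 005 and 14 in TDECs over the group, a log2 fold change of 1.62 with the filter of 1 count and an adjusted p of 0.173.

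Sertraline was compared with untreated TDECs to see what the drug changed. Of the members, Angpt2 alone had enough counts to be tested, and it was called lower, where 5.08% of 15540 genes were called (1.82% higher, 3.26% lower). Angpt2 fell by 1.57 on the log2 scale (SE 0.081, 95% interval -1.74 to -1.40, adjusted p = 7.6e-10), from 58.6 to 19.8 CPM, and all 3 treated libraries lay below all 3 untreated ones. The call held under 12 of 12 alternative settings, with log2 fold changes of -1.62 to -1.502, including -1.61 without replicate 2 of TDEC sertraline, which stood apart. The study picked Angpt2 and Tek out of these same libraries, so their values here are not independent evidence of direction. Separately, it reported by ELISA less secreted angiopoietin-2 protein with sertraline, which transcript counts do not measure. With the filter of 1 count, the log2 fold changes of Angpt1, Tek and Ptprb were 0.38 (95% interval -1.19 to 1.96, adjusted p = 0.78), -0.45 (-1.90 to 0.998, adjusted p = 0.706) and 0.05 (-1.63 to 1.73, adjusted p = 0.969). These intervals are wide, and at 9 to 14 counts per group a change of 2-fold was not detectable. Treated TDECs were also compared with the earlier stages. Against 005, both tested members were called lower in treated cells, where 22.4% of genes were called (10.2% lower), with Angpt2 at -1.58 (SE 0.148, adjusted p = 1.4e-06) and Angpt1 at -1.41 (SE 0.422, adjusted p = 0.0112). The Angpt1 call was lost with DESeq2 (adjusted p = 0.0554) and without replicate 2 of 005 (adjusted p = 0.0541). Here and against TDEC day 2, Angpt1 passed the filter only through the earlier stage, where it is high, so its calls are a description. Against TDEC day 2, 21% of genes were called (10% lower), and both were again called lower, Angpt2 by a log2 fold change of -1.43 (SE 0.093, adjusted p = 1.3e-07) and Angpt1 by -1.77 (SE 0.412, adjusted p = 0.00281). The treated cells therefore had less Angpt2 transcript than all other groups made from 005, and still more than MBMECs.

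**Figure D2:**
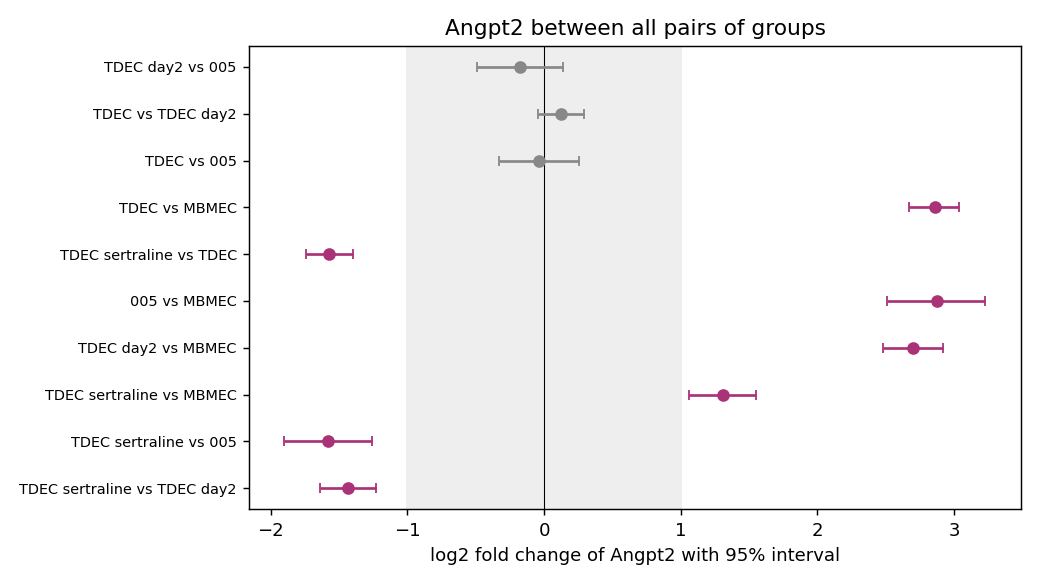
Log2 fold change of Angpt2 (horizontal axis) with its 95% interval for all 10 pairs of groups, from the edgeR fit of each pair; the grey band is a change of less than 2-fold and coloured points were called. The 3 pairs among 005, TDEC day 2 and untreated TDECs lie inside the band, sertraline pairs with these lie at -1.58 to -1.43, and all pairs with MBMEC lie at 1.31 to 2.87.

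The balance of the ligands was taken in each library as log2 of the Angpt2 count over the Angpt1 count, with 0.5 added to both. It was 6.04, 5.44 and 6.40 in 005 and 5.44, 5.46 and 5.47 in TDEC day 2. It was 7.21, 7.54 and 8.20 in untreated TDECs and 5.64, 5.71 and 5.83 with sertraline. The untreated TDEC libraries lay above all the others with Angpt1 counts. The mean ratio differed by 2.194 between untreated TDECs and day 2, by 1.69 between untreated TDECs and 005 and by -1.92 between treated and untreated TDECs, each with an exact two-sided permutation p of 0.1, the smallest that 3 libraries against 3 can give. Between day 2 and 005 it differed by -0.50 (exact permutation p = 0.3). Untreated TDECs had 2 to 4 Angpt1 counts per library where day 2 had 15 or 16, so that the ratio of single libraries moves with 1 or 2 counts. With sertraline the Angpt1 counts were 4 or 5, and the lower ratio went with lower Angpt2 counts.

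**Figure D3:**
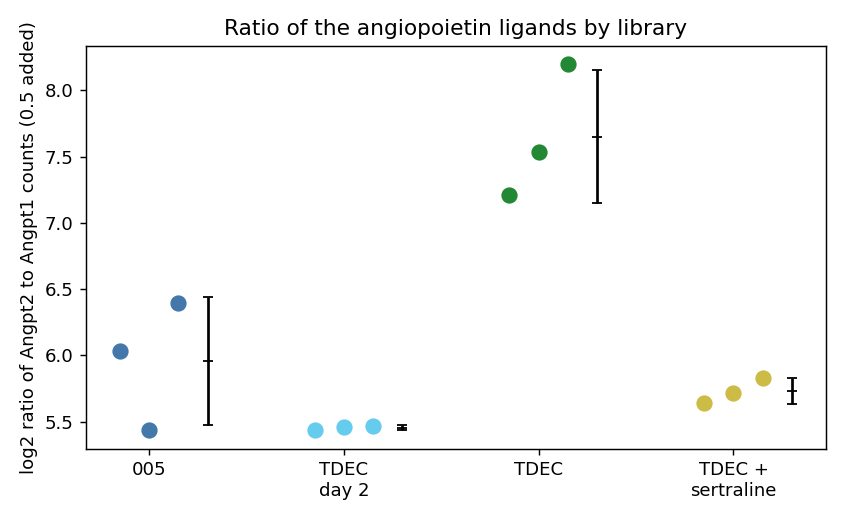
Each point is 1 library; the vertical axis is log2 of Angpt2 over Angpt1 counts with 0.5 added to both, and bars are group means with SD (n = 3). Untreated TDECs lie between 7.21 and 8.20 and the other 9 libraries between 5.44 and 6.40; MBMECs are not drawn because their Angpt1 counts were 0.

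Angpt2 lies wholly within the span of Mcph1, a gene for a protein of chromosome condensation and DNA repair, on the opposite strand, with a shared span of 51300 bases and 0 shared exon bases in GENCODE M21. The strand setting of the authors' counting is not given, so Mcph1 was followed as well. Its counts were 519, 507 and 486 in 005, 562, 537 and 475 in TDEC day 2, and 165, 185 and 179 in untreated TDECs. They were 247, 227 and 242 with sertraline and 400, 359 and 355 in MBMECs. Mcph1 fell between day 2 and untreated TDECs by 1.43 on the log2 scale (SE 0.089, adjusted p = 1.4e-07), where Angpt2 did not pass the test. Between treated and untreated TDECs Mcph1 differed by 0.19 (SE 0.0998, adjusted p = 0.158), where Angpt2 fell. Angpt1 shares 737 exon bases with the antisense gene Gm17473, which had 0 to 2 counts per library, and without strand their reads cannot be told apart. Ptprb shares a span of 137 bases, and 0 exon bases, with the small nucleolar RNA gene Gm26495 on the same strand.

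**Figure D4:**
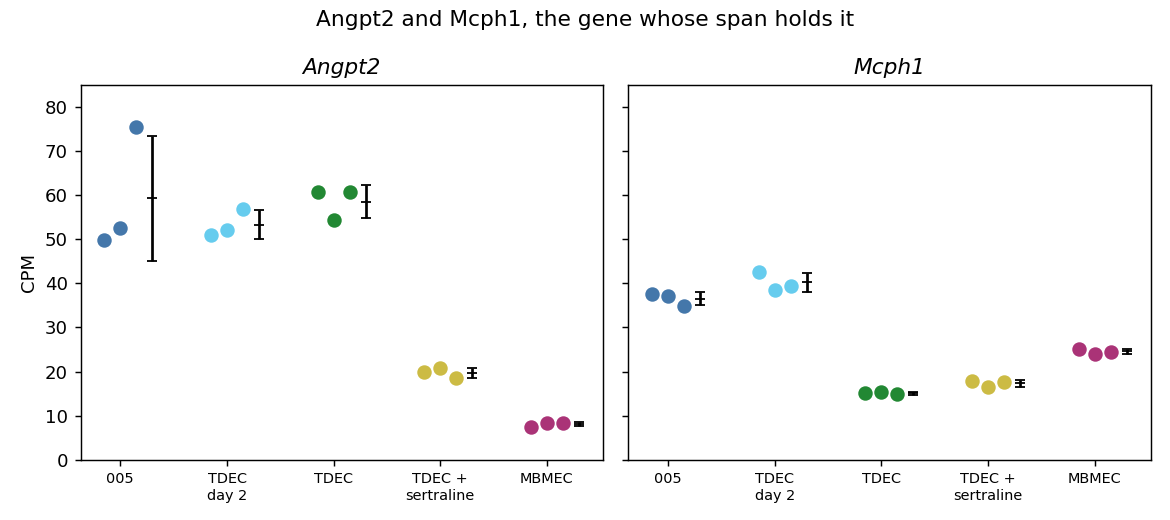
CPM of Angpt2 (left) and of Mcph1 (right) by library in the 5 groups, on the same linear axis, with bars for the mean and SD (n = 3). Angpt2 drops from 58.6 to 19.8 CPM between untreated and treated TDECs while Mcph1 stands at 15.1 and 17.3 CPM.

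Downstream of the receptors, a list of 34 signalling partners of Tie2 was counted: adaptors, the PI3K and AKT kinases, FOXO factors, the MAP kinases, integrins and modifiers. Between TDEC day 2 and 005, 2 of 33 tested were called higher and 1 lower, a share near the 9.83% of all genes, and the list median was 0.131 against -0.021 over all genes. The integrin subunit Itgav rose by 1.34 on the log2 scale (SE 0.147, adjusted p = 4.2e-05), the docking protein Dok2, at 0.482 and 1.24 CPM, was called at 1.32 (SE 0.434, adjusted p = 0.0322), and the adaptor Grb14 fell by 1.10 (SE 0.096, adjusted p = 8.5e-06). The Dok2 call was lost with DESeq2 (adjusted p = 0.0738), with a filter of 1 count (0.0512) and without replicate 2 or 3 of either group (0.0546 to 0.118). Dok2 passed the filter only through the day 2 libraries, where it is high, so its call is a description. Between untreated TDECs and day 2, where 20.5% of all genes were called, 1 of 32 was called higher, Itgb5 at 1.00 (SE 0.133), just past the threshold, and 1 lower, Grb14 at -1.53 (SE 0.138), with a list median of -0.102. Against 005, untreated TDECs had 3 of 32 higher and 1 lower, a lower share than the 23.4% of all genes, with a median of -0.046. Those were Foxo3, a transcription factor restrained by AKT, at 1.70 (SE 0.061), the integrin subunit Itgb5 at 1.87 (SE 0.132), the adaptor Shc1 at 1.06 (SE 0.074) and Grb14 at -2.61 (SE 0.111). The mean level of Grb14 was thus 40.1 CPM in 005, 19.0 on day 2 and 6.66 in untreated TDECs.

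Between treated and untreated TDECs, where 5.08% of all genes were called, 0 of 33 partners were called by edgeR or by DESeq2, although 15 had an unadjusted p under 0.05 and 13 an adjusted p under 0.05. Their log2 fold changes ran from -0.57 for the kinase Pak1 (adjusted p = 4.3e-06) to 0.64 for Nos3 (adjusted p = 0.261), and the list median was -0.017 against -0.00025 over all genes. Against MBMECs, untreated TDECs had 8 of 32 partners higher and 9 lower, where 28.1% and 20.8% of all genes were. The list median was -0.164 against 0.086 over all genes. The PI3K regulatory subunits Pik3r1 and Pik3r2, Foxo3 and Pak1 were higher by 2.05 (SE 0.054), 2.30 (SE 0.070), 2.32 (SE 0.056) and 2.16 (SE 0.079) on the log2 scale. Nos3, the endothelial nitric oxide synthase, was lower at -11.75 (SE 0.094), from 2108 CPM in MBMECs to 0.595 CPM. With 21 counts over the TDEC group, Nos3 passed the filter only through the MBMEC libraries. Grb14, with 1 count over the MBMEC group, passed only through the TDEC libraries. The calls of both are a description. The integrin subunit Itgb3 and the kinases Akt1 and Mapk3 were lower at -6.66 (SE 0.077), -1.78 (SE 0.046) and -1.86 (SE 0.051). The line 005 had 6 of 32 higher and 9 lower than MBMECs, against 25.3% and 18.7% of all genes, with a median of -0.049, among them Pak1 at 2.74 (SE 0.091) and Nos3 at -10.76 (SE 0.159). Grb14 had 1 count over the MBMEC group, which gives a ratio of 005 to MBMEC of 1819 (326 to 71890). Svep1, a secreted protein known to bind Tie1, had 60 counts in 005 and 0 in MBMECs, and was at least 21.9-fold higher in 005. Grb14 and Svep1 passed the filter here only through the 005 libraries, so their calls are a description. Many partners are used by other receptors too, and their counts say nothing of Tie2 activity.

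**Figure D5:**
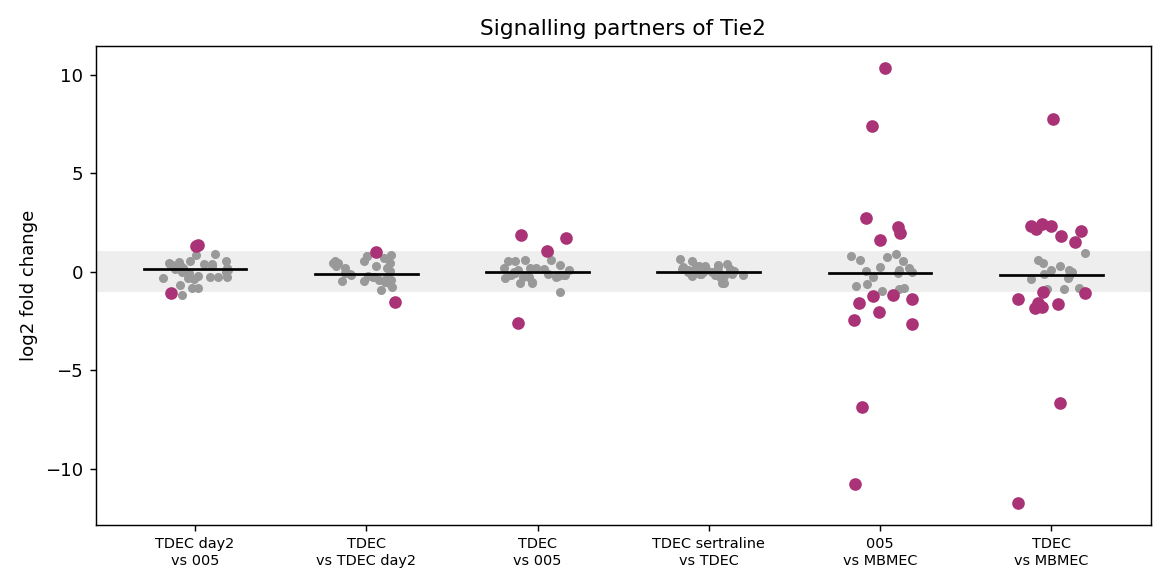
Log2 fold changes (vertical axis) of the tested signalling partners of Tie2 in 6 comparisons; 1 point is 1 gene, coloured where called, the bar is the list median and the grey band a change of less than 2-fold. All points of the sertraline comparison lie between -0.57 and 0.64; fold changes above 7 are of genes with 0 or 1 count in MBMECs.

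Among 8 genes related to the angiopoietins by sequence, 3 or 4 passed the filter. Angptl6, a secreted angiopoietin-like factor, rose by 3.73 on the log2 scale (SE 0.147, adjusted p = 3.3e-09) between day 2 and untreated TDECs (20.5% of all genes called), from 3.03 to 41.2 CPM, and Angptl1 fell by 1.78 (SE 0.312, adjusted p = 4.6e-04). Against 005 (23.4% of all genes called) the same genes were called, at 3.09 (SE 0.186) and -1.29 (SE 0.278). Between day 2 and 005 (9.83% of all genes called), 0 of 3 were called by edgeR or DESeq2, with 1 at an unadjusted p under 0.05. With sertraline (5.08% of all genes called) 0 of 3 were called by either, with 2 at an adjusted p under 0.05: Angptl2 had a log2 fold change of -0.88 (SE 0.101, adjusted p = 6.3e-06) and Angptl6 one of 0.54 (SE 0.067, adjusted p = 1.5e-05), both short of 2-fold. Against MBMECs, untreated TDECs had 3 of 4 higher, among them Angptl6 at 3.96 (SE 0.119) and Angptl2 at 6.12 (SE 0.210), and 1 lower, Angptl4, at -5.57 (SE 0.412), where 28.1% of all genes were called higher and 20.8% lower. Over the groups, TDECs and MBMECs had 877 and 16 counts of Angptl2, 38 and 2 of Angptl1, and 4 and 266 of Angptl4. Angptl1, Angptl2 and Angptl4 passed the filter only through the group where they are high, so their calls are a description.

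The genes whose log2 CPM followed each member most closely over the 15 libraries were named by Pearson's r among 11010 genes, as a description in which the libraries of a group are not independent. For Angpt2 these were Dcbld1 (r = 0.972), Calm2 (0.963) and Vat1l (0.957), and 148 genes were above 0.9. For Angpt1 they were Hmgn2, Idh1 and Chsy1 (0.978 to 0.979). For Tek they were Tnk2os (0.987), Antxr2 (0.984) and Eng (0.983), for Tie1 Slfn5, Gcnt1 and Ly6c1 (0.9992 to 0.9999), and for Ptprb Serpinb6b, Adamts5 and Ly6c1 (0.996 to 0.997). Eng is an endothelial co-receptor of the TGF-beta family. For the receptors and Ptprb the value is set by the MBMEC libraries, and 133 genes had an r above 0.99 with Tie1. Among the members, Tie1 and Ptprb had an r of 0.994, Tek with Tie1 0.964, and Angpt1 with Angpt2 0.802. The value of the ligands includes the MBMEC libraries, where both were lowest. Between day 2 and untreated TDECs, Angpt1 went from 46 to 9 counts over the group and Angpt2 from 2081 to 2049.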

How the data were processed

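Poly(A) RNA of 15 mouse libraries had been sequenced with a directional kit. The deposited values are raw counts of reads per gene, which the authors made without normalization. Processing notes of the submitters list genome build mm10, with HISAT2 2.1.0, featureCounts 1.6.3, Trimmomatic 0.38 and bcl2fastq 2.19. The strand setting, the handling of reads with several alignments and the annotation release are not given in the sources used here. Libraries held 11283680 to 17093061 counts. The authors call untreated and treated TDECs biological replicates; for other groups no separate cultures are stated, so p-values may measure technical spread only.

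Each pair of groups was compared in its 6 libraries with edgeR 4.0.16 in R 4.3.3 (TMM scaling, filterByExpr with a minimum count of 10, quasi-likelihood test, Benjamini-Hochberg adjustment over all genes). Levels are CPM scaled by TMM over 15 libraries, and exon lengths came from GENCODE M21. Where a group had no counts, a floor of 3 counts over the group was used. Ratios carry exact counting intervals at 0.95. The levels of 1 further marker list are not reported here. The members and gene lists were chosen with earlier results of these data known. Named were all members, overlapping genes, up to 4 called genes per direction and list by smallest p, and the 3 genes of most similar pattern with at least 10 CPM in their highest group; Nos3, Svep1, Grb14 and the ends of the sertraline range were also named where a statement needed them. DESeq2 1.42.0, other scalings, a filter of 1 count, all 15 libraries together, a replicate block and leaving out libraries were tried.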

Additional observations from a re-analysis of the deposited data

How the results depend on the processing

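Of 28 log2 fold changes of members, 24 were called, and 23 of these were called with the same sign under all 12 alternatives. The exception was Angpt1 in treated TDECs against 005 (-1.435 with DESeq2, -1.203 without replicate 2 of 005). All calls other than those of Angpt2 were of members that passed the filter only through the group where they are high. For these the tally is a description. The uncalled Angpt2 differences changed sign for day 2 against 005 without replicate 3 of 005 (0.064, leave-one-out range from -0.275), and for untreated TDECs against 005 without that library (0.176, range from -0.156) or without TDEC replicate 2 (0.016). Members called in untreated TDECs against 005 went from 0 to 1 with a filter of 1 count and with all 15 libraries in 1 fit, and lay at 0 to 1 when libraries were left out (1 without TDEC replicate 1, 2 or 3 or 005 replicate 1), since Angpt1 was then tested. Members called in treated TDECs against 005 went from 2 to 1 with DESeq2 and lay at 1 to 2 when libraries were left out. Partners called between untreated TDECs and day 2 went from 2 to 1 with plain library totals and with a filter of 1 count, and lay at 1 to 2 when libraries were left out (1 without TDEC replicate 1 or 3 or day 2 replicate 1 or 2), where Itgb5 sits at the fold threshold. Adding 1 in place of 0.5 turned the ligand ratio of TDECs against MBMECs from -0.288 to 0.505 and moved that of 005 against MBMECs from -1.98 to -1.04. By Spearman's rho, 0 of 3 most similar genes stayed for Angpt1, Angpt2 and Ptprb. Plain totals moved the median of all genes from 0.0895 to 0.301 for 005 against MBMEC and from -0.0148 to -0.141 for TDECs against 005.

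Replicate numbers did not pair the libraries (correlations of same-numbered deviations -0.242 to 0.208 over 10752 genes), and a replicate block changed 0 calls of members and ended the call of Dok2 between day 2 and 005 (adjusted p = 0.0694), with 787 genes called between treated and untreated TDECs in place of 789. At 0 to 16 counts per library, the levels of Angpt1 in all groups, and of Tek, Tie1 and Ptprb outside MBMECs, are too low to show small changes.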

Other observations

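In MBMECs, where Angpt1 had 0 counts, log2 of the ligand ratio with 0.5 added to both counts was 7.90, 7.98 and 7.93 in replicates 1 to 3. These values follow from the Angpt2 counts and the number added. Their differences from other groups depend on the number added, and no comparison is drawn from them.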
